A study of Homo sapiens with 4 samples.

Results

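The superoxide dismutases, catalase and peroxiredoxins are among the enzymes that remove superoxide and hydrogen peroxide, and thioredoxin reduces most peroxiredoxins again. Their genes were taken as SOD1, SOD2, SOD3, CAT, PRDX1, PRDX2, PRDX3, PRDX5, PRDX6 and TXN, selected by gene symbol, and 10 of 10 were found among the 58219 genes of the table. They were measured in the total RNA of WI-38 cells, normal diploid fibroblasts of human embryonic lung. The cells were made senescent with 10 Gy of ionizing radiation and harvested at day 8. One group had received an siRNA directed at exon 4 of G3BP1 (siG3BP1) and the other a scrambled siRNA (siCTL), and all libraries shared the cell line, the dose and the day. Each group had 2 libraries, called A and B. Whether A and B came from separate cultures is not given in the labels, so p-values here rest only on the spread between these libraries, which may be technical. In the main test, limma on all 4 libraries, that spread was a trend over all tested genes at a like level. It was not the spread of the single gene. The table holds normalized reads, that is, reads counted in a gene divided by the size factor of the library.

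Superoxide dismutases turn superoxide into hydrogen peroxide and oxygen. SOD1 does so with copper and zinc in the cytosol, SOD2 with manganese in the mitochondrial matrix and SOD3 with copper and zinc outside the cell. Hydrogen peroxide is then removed by catalase in peroxisomes and by peroxiredoxins, whose reactive cysteine is oxidized by the peroxide. The oxidized cysteine of most peroxiredoxins is reduced again by thioredoxin, which receives its electrons from NADPH through thioredoxin reductase, whereas PRDX6 relies on glutathione. SOD2 is known as a gene that NF-κB induces during inflammatory signaling, a pathway active in the secretory program of senescent fibroblasts.

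The peroxiredoxins share their chemistry but differ in base composition, which is set beside the fold changes further on. Whether base composition acts on the fold changes was not tested. The coding stretches around the reactive cysteine show how alike and unlike the genes are, with 45 bases for each gene from the canonical transcripts of Gencode release 44. Capitals mark the codon of the cysteine that reacts with peroxide, and for thioredoxin the codons of both active-site cysteines.
PRDX1: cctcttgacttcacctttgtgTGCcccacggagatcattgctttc
PRDX2: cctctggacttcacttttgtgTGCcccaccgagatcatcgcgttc
PRDX3: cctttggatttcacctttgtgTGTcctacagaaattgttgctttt
PRDX5: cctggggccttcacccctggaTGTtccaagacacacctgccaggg
PRDX6: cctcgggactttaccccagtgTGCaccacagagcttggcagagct
TXN: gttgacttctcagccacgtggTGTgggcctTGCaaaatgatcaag

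The cysteine codon was codon 52 in PRDX1, 51 in PRDX2, 108 in PRDX3, 100 in PRDX5 and 47 in PRDX6, counted from the start codon, and codon 32 for the first one in TXN. PRDX1 and PRDX2 had the same base at 40 of the 45 positions, PRDX1 and PRDX3 at 35, and PRDX2 and PRDX3 at 33. PRDX5 and PRDX6 matched each other and the remaining peroxiredoxins at 21 to 27 positions. Of the 45 bases, 17 were G or C in PRDX3, 23 in PRDX1, 25 in PRDX2, 27 in PRDX6 and 29 in PRDX5, and 23 in TXN. The stretch does not stand for the whole gene, since PRDX6 held more G and C here than PRDX2 while its exons as a whole had a GC content of 42.7%, close to the 41.8% of PRDX3.

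The libraries held 17169469 and 19233994 reads in genes for siG3BP1, and 16944404 and 22745000 for siCTL. G3BP1 RNA was at 201 and 271 normalized reads in siG3BP1 cells, against 2675 and 2522 in siCTL cells (log2 fold change -3.47, with a standard error, SE, of 0.34, adjusted p = 9.101e-21, limma with Benjamini-Hochberg adjustment). Each of the 8 fibroblast markers was expressed, with sums of 383424 to 401140 normalized reads in siG3BP1 cells and 256345 to 391206 in siCTL cells. They did not move together. COL3A1 and DCN were called lower (adjusted p = 0.0208 and 0.00453, limma), and VIM and S100A4 higher (adjusted p = 0.0405 and 1.905e-04, limma). COL1A1, COL1A2, THY1 and PDGFRB were not called. Of all tested genes, 30.5% were called lower and 25.9% higher. The 6 epithelial markers summed to 1383 to 2258 in siG3BP1 cells and 960 to 1125 in siCTL cells. All but a few of these reads were KRT8, KRT18 and KRT19, with EPCAM and CDH1 at 3.06 or below and SFTPC at 0. KRT8 and KRT19 were called higher (adjusted p = 0.0356 and 1.123e-04, limma), and KRT18 was not called. The 5 endothelial markers summed to 1007 to 1471 in siG3BP1 cells and 3018 to 4480 in siCTL cells, nearly all of it TEK, with CDH5 at 0 and PECAM1 and KDR at 4.29 or below. TEK was called lower, whereas VWF was called higher (adjusted p = 0.0487, limma). VWF had 75.9 and 36.0 normalized reads in siG3BP1 cells, against 21.6 and 33.7 in siCTL cells. The 6 immune markers summed to 100.1 to 107 in siG3BP1 cells and 72.9 to 81.4 in siCTL cells, with PTPRC at 1.60 or below. Most of it was LYZ and CD14. LYZ was called higher (adjusted p = 0.00212, limma), and CD14 lay below siCTL in both siG3BP1 libraries without being called. The 4 smooth muscle markers, which activated fibroblasts also express, summed to 14371 to 16633 in siG3BP1 cells and 7864 to 12933 in siCTL cells, without overlap. Nearly all of it was ACTA2 and CNN1, each above siCTL in both siG3BP1 libraries, as were 42.8% of all tested genes. Neither was called (adjusted p = 0.104 and 0.0548, limma). MYH11 lay below siCTL in both siG3BP1 libraries without being called, and DES overlapped. The part of these markers in the results was not tested. In bulk RNA, fewer cells of a type and less RNA per cell cannot be told apart.

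Of the 10 antioxidant genes, SOD2 and PRDX3 fell after siG3BP1 and PRDX2 and PRDX5 rose, while the other 6 did not pass the test. The test was limma on log2(normalized reads + 0.5) over the 13422 genes with a mean of at least 10, two-sided, at an adjusted p under 0.05 by Benjamini-Hochberg, and 10 of 10 antioxidant genes were among those tested. Over all tested genes, 30.5% were called lower and 25.9% higher, so that 2 of 10 in each direction is no larger a share than in the table as a whole. The median log2 fold change was 0.28 over the 10 genes and 0.04 over all tested genes. In 5 of the 10 genes (SOD1, PRDX1, PRDX2, PRDX5 and PRDX6) both siG3BP1 libraries lay above both siCTL libraries, in 3 (SOD2, CAT and PRDX3) both lay below, and in SOD3 and TXN the groups overlapped. The same was seen for 42.8% of all tested genes above and 40.5% below.

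**Figure D1:**
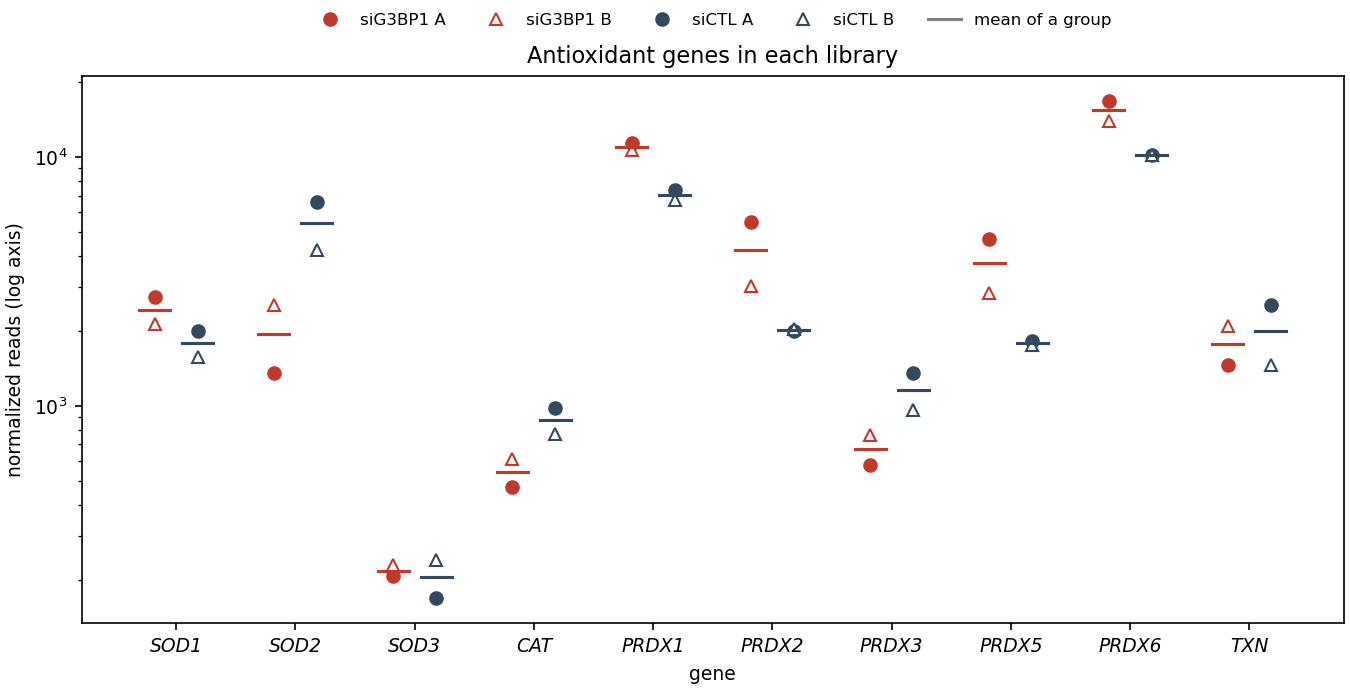
Normalized reads of the 10 antioxidant genes in each library on a log axis, with siG3BP1 in red at the left of each pair and siCTL in dark blue at the right, filled circles for A, open triangles for B and a line at the group mean. SOD2 in siG3BP1 cells sits at 1352 and 2537, below the siCTL libraries at 6595 and 4243, whereas PRDX2 and PRDX5 sit above their siCTL libraries and SOD3 and TXN overlap.

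Per kilobase of exon, PRDX6 and PRDX1 were the most abundant of the 10 RNAs in both groups. PRDX6 averaged 6659 normalized reads per kb in siG3BP1 cells and 4406 in siCTL cells, and PRDX1 averaged 6548 in siG3BP1 cells and 4191 in siCTL cells, with libraries of the pair interleaved in each group. In siG3BP1 cells the order went on with PRDX5 (4377), PRDX2 (2089), TXN (1755), SOD1 (1235), PRDX3 (199), CAT (151), SOD3 (108) and SOD2 (107). The neighbours PRDX2 and TXN overlapped between libraries, as did SOD3 and SOD2. In siCTL cells PRDX6 and PRDX1 were followed by PRDX5 (2088), TXN (1984), PRDX2 (991), SOD1 (905), PRDX3 (343), SOD2 (299), CAT (245) and SOD3 (101). There PRDX5 overlapped with TXN, PRDX2 with SOD1, PRDX3 with SOD2 and SOD2 with CAT. SOD2 thus held place 8 of 10 in siCTL cells and place 10 in siG3BP1 cells, and its exons, all transcripts joined, span 18144 bases, which lowers a value per kb. Per kilobase of the canonical transcript instead, PRDX1 came before PRDX6 (11654 and 9106 in siG3BP1 cells, 7459 and 6024 in siCTL cells).

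Among the dismutases, SOD2 RNA fell and neither SOD1 nor SOD3 passed the test. SOD2 lies on chromosome 6 of GRCh38, minus strand, at chr6:159669057-159762529. Normalized reads of SOD2 were 1352 (A) and 2537 (B) after siG3BP1, against 6595 (A) and 4243 (B) after siCTL. Both siG3BP1 libraries lay below both siCTL libraries, and the lowest library was A in siG3BP1 while the highest was A in siCTL. The mean in siG3BP1 cells was 0.359 of that in siCTL cells, and the log2 fold change was -1.51 (SE 0.33, 95% interval -2.17 to -0.86, n = 2 libraries per group, adjusted p = 1.071e-04, limma). The fall kept its call without siG3BP1 A (-1.06, adjusted p = 0.0376, limma) and without siG3BP1 B (-1.97, adjusted p = 0.00245, limma). It lost the call without siCTL A (-1.20, adjusted p = 0.275, limma) and without siCTL B (-1.83, adjusted p = 0.211, limma), with the lone siCTL library taken to vary like the siG3BP1 pair. WTAP and ACAT2, on the opposite strand, overlap the span of SOD2, and the libraries were stranded, but no source used here states that strand was used in counting. WTAP had 257 and 403 normalized reads in siG3BP1 cells, against 802 and 617 in siCTL cells. ACAT2 had 367 and 487 in siG3BP1 cells, against 572 and 437 in siCTL cells. Whether reads of either gene entered the value of SOD2 was not tested.

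SOD1, the cytosolic enzyme, lies at chr21:31659622-31668931 on the plus strand and had 2740 and 2138 normalized reads in siG3BP1 cells, against 2004 and 1569 in siCTL cells. Both siG3BP1 libraries were above the siCTL libraries by a margin smaller than the gap between A and B, and the log2 fold change of 0.45 (SE 0.33, 95% interval -0.21 to 1.10) did not pass the test (adjusted p = 0.238, limma). It was 0.63 without siG3BP1 B (adjusted p = 0.0306, limma) and was not called without any other library, at 0.27 without siG3BP1 A (adjusted p = 0.287), 0.63 without siCTL A (adjusted p = 0.521) and 0.27 without siCTL B (adjusted p = 0.779). SOD3, the secreted enzyme, lies at chr4:24789912-24800842 on the plus strand and had 208 and 229 normalized reads in siG3BP1 cells, against 169 and 240 in siCTL cells. The siG3BP1 values fell between the siCTL values, and the log2 fold change was 0.11 (SE 0.34, 95% interval -0.56 to 0.78, adjusted p = 0.789, limma). An interval of this width does not show that the levels were equal.

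CAT, which encodes catalase, the peroxisomal enzyme that splits hydrogen peroxide into water and oxygen, lay below siCTL in both siG3BP1 libraries without passing the test. The gene lies at chr11:34438925-34472062 on the plus strand and had 472 (A) and 610 (B) normalized reads after siG3BP1, against 983 (A) and 770 (B) after siCTL. As for SOD2, A was the lower library in siG3BP1 and the higher one in siCTL. The log2 fold change was -0.70 (SE 0.34, 95% interval -1.36 to -0.04, adjusted p = 0.0647, limma), so the interval of the single gene excluded 0 while the value adjusted over all genes missed the threshold. The call depended on the tool and the scaling. DESeq2 on the recovered reads gave -0.70 (adjusted p = 0.0477) and edgeR -0.77 (adjusted p = 0.0412). Limma called CAT with TMM scaling (-0.77, adjusted p = 0.0425), quantile normalization (-0.71, adjusted p = 0.0432) and a correction for exonic length (-0.76, adjusted p = 0.0476). It did not with another pseudocount, other filters on low values, the letters as a block, or the corrections for GC content described below. Limma called CAT without siG3BP1 B (-0.88, adjusted p = 0.0113), but not without siG3BP1 A (-0.51, adjusted p = 0.0889), siCTL A (-0.52, adjusted p = 0.591) or siCTL B (-0.87, adjusted p = 0.351).

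PRDX1 and PRDX2, peroxiredoxins of the cytosol, lay higher after siG3BP1, with PRDX2 passing the test and PRDX1 not. PRDX2, minus strand at chr19:12796820-12801859, had 5464 (A) and 3034 (B) normalized reads after siG3BP1, against 1993 (A) and 2037 (B) after siCTL. The siCTL libraries were nearly equal, and siG3BP1 A stood 1.80 times as high as siG3BP1 B. The mean in siG3BP1 cells was 2.11 times that in siCTL cells, and the log2 fold change was 1.01 (SE 0.33, 95% interval 0.36 to 1.67, adjusted p = 0.00714, limma). Without siG3BP1 A the change was 0.59 (adjusted p = 0.0270, limma), and without siCTL A (0.999, adjusted p = 0.333) or siCTL B (1.03, adjusted p = 0.291) limma no longer called it. HOOK2, annotated on the same strand, covers the whole span of PRDX2 and had 338 and 176 normalized reads in siG3BP1 cells, against 129 and 123 in siCTL cells.

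PRDX1, minus strand at chr1:45511036-45523047, was more abundant than PRDX2 per kb of exon. It had 11400 and 10626 normalized reads in siG3BP1 cells, against 7401 and 6697 in siCTL cells. The groups did not overlap and the libraries within each group were close, and the log2 fold change was 0.64 (SE 0.33, 95% interval -0.00078 to 1.29, adjusted p = 0.0807, limma). As for every gene in the main test, limma's standard error follows a trend over all genes at that level, not the spread of PRDX1 itself. DESeq2 gave 0.64 with an adjusted p of 0.0447, whereas edgeR gave 0.57 with an adjusted p of 0.148 and quantile normalization lowered the change to 0.28 (adjusted p = 0.332, limma). Limma called PRDX1 without siG3BP1 A (0.59, adjusted p = 0.0336) and without siG3BP1 B (0.70, adjusted p = 0.00907), but not without siCTL A (0.72, adjusted p = 0.432) or siCTL B (0.57, adjusted p = 0.50). The 20 pseudogenes of these genes that the table lists averaged at most 1.52 normalized reads.

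PRDX3 fell and PRDX5 rose, although both proteins work in mitochondria, PRDX5 also in peroxisomes and the cytosol. PRDX3, minus strand at chr10:119167703-119178833, had 581 (A) and 767 (B) normalized reads after siG3BP1, against 1357 (A) and 962 (B) after siCTL. Its groups did not overlap, with the same placing of the A libraries at the outside as for SOD2 and CAT. The mean in siG3BP1 cells was 0.581 of that in siCTL cells, and the log2 fold change was -0.78 (SE 0.34, 95% interval -1.43 to -0.12, adjusted p = 0.0397, limma). The call was lost without a filter on low values (adjusted p = 0.0557, limma), without siG3BP1 A (-0.57, adjusted p = 0.104, limma), without siCTL A (-0.53, adjusted p = 0.590, limma) and without siCTL B (-1.02, adjusted p = 0.297, limma).

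PRDX5, plus strand at chr11:64318088-64321811, had 4699 (A) and 2830 (B) normalized reads after siG3BP1, against 1827 (A) and 1765 (B) after siCTL. As for PRDX2, siG3BP1 A was the highest library and the siCTL libraries were nearly equal. The mean in siG3BP1 cells was 2.10 times that in siCTL cells, and the log2 fold change was 1.02 (SE 0.33, 95% interval 0.37 to 1.68, adjusted p = 0.00685, limma). Without siG3BP1 A it was 0.66 (adjusted p = 0.0235, limma), and without siCTL A (1.05, adjusted p = 0.320) or siCTL B (0.997, adjusted p = 0.301) limma did not call it.

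PRDX6, the form that draws on glutathione and that also has phospholipase activity, lay higher in both siG3BP1 libraries without passing the test. Plus strand at chr1:173477266-173488807, it had 16845 and 13932 normalized reads in siG3BP1 cells, against 10206 and 10156 in siCTL cells. The groups did not overlap and the siCTL libraries were nearly equal, and the log2 fold change was 0.59 (SE 0.33, 95% interval -0.05 to 1.23, adjusted p = 0.109, limma). Limma called it without siG3BP1 B (0.73, adjusted p = 0.00654), but not without siG3BP1 A (0.45, adjusted p = 0.0555), siCTL A (0.59, adjusted p = 0.498) or siCTL B (0.59, adjusted p = 0.475), and quantile normalization lowered it to 0.17.

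TXN, the cytosolic thioredoxin that reduces peroxiredoxins, showed no difference larger than the spread between libraries. Minus strand at chr9:110243811-110256640, it had 1459 and 2087 normalized reads in siG3BP1 cells, against 2544 and 1464 in siCTL cells. The log2 fold change was -0.15 (SE 0.33, 95% interval -0.80 to 0.51, adjusted p = 0.720, limma), and its sign turned without siG3BP1 A (0.11) and without siCTL A (0.25).

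Across the 4 libraries some of the 10 genes had closely like patterns. The measure was the Euclidean distance between log2 values centred on each gene's mean. PRDX2 and PRDX5 were the closest pair (distance 0.10), followed by CAT and PRDX3 (0.13), PRDX1 and PRDX6 (0.17) and SOD1 and PRDX6 (0.29). SOD2 was closest to PRDX3 among the 10, at 0.83. Among 10219 protein-coding genes with a mean of at least 50, the 5 nearest to SOD2 were POLR2K (0.10), B3GNT2 (0.13), PARP9 (0.15), BDH2 (0.15) and HAUS1 (0.15), whose log2 fold changes were -1.44 to -1.57. The 5 nearest to CAT were DOCK5 (0.01), SNX5 (0.02), SPATS2L (0.04), RAB4A (0.05) and YAE1D1 (0.05). These distances rest on 4 libraries and are given as a description.

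The fold changes of all genes followed the GC content of their exons, and 5 of the 10 antioxidant genes lay along that trend. Over 13361 tested genes with a GC value, Spearman's rho between log2 fold change and exonic GC content was 0.80, and over the 10 antioxidant genes it was 0.55 (Pearson's r 0.61), all genes sharing the same 4 libraries. Tested genes were split into 10 bins of like size by GC content. In the bin with the lowest GC content, which holds TXN (36.7% GC), the median log2 fold change was -1.35. In the third bin, with PRDX3 (41.8%) and PRDX6 (42.7%), it was -1.07, and in the fourth, with CAT (43.4%) and SOD2 (43.7%), it was -0.75. In the seventh bin, with PRDX1 (51.6%), the median was 0.62, and in the eighth, with SOD1 (54.4%) and PRDX2 (56.1%), it was 0.84. PRDX5 (60.6%) was in the ninth, with a median of 0.93, and SOD3 (61.7%) in the bin with the highest GC content, with a median of 0.99. CAT, PRDX1, PRDX2, PRDX3 and PRDX5 thus lay within their standard error of the median of genes of like GC content, while the other 5, PRDX6, TXN, SOD3, SOD1 and SOD2, lay farther from it.

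**Figure D2:**
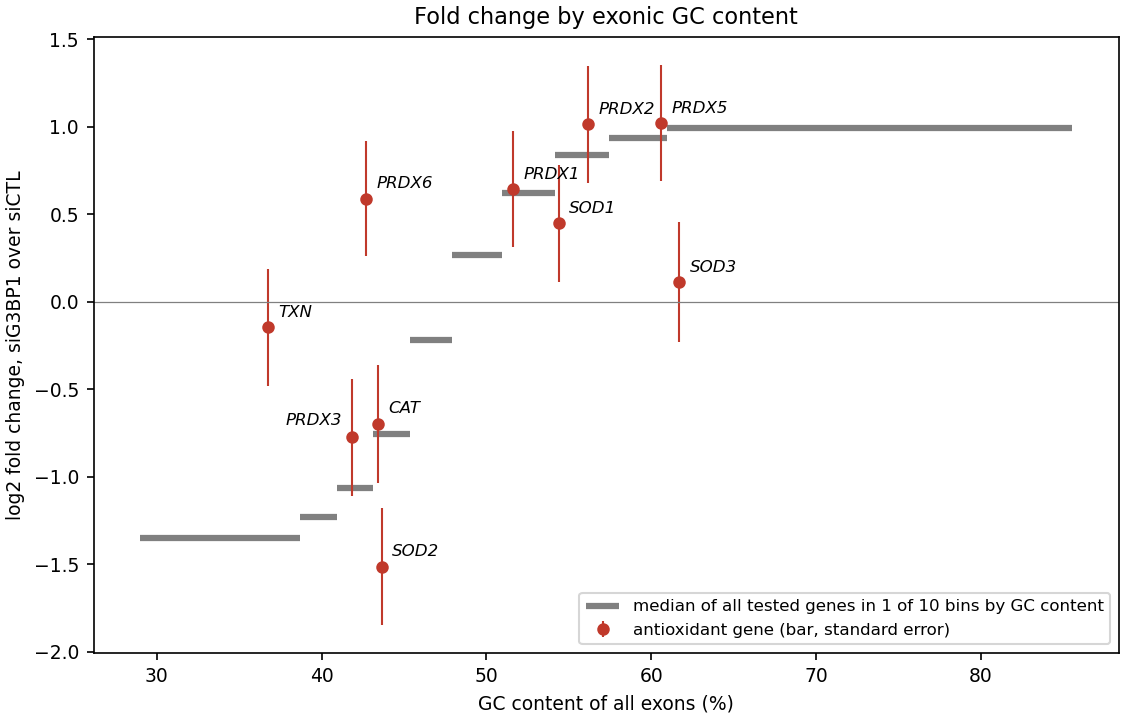
Log2 fold change (siG3BP1 over siCTL) against exonic GC content in percent, with the 10 antioxidant genes as red points with standard errors and the median of all tested genes in each of 10 bins by GC content as a grey line. The grey medians run from -1.35 at the lowest GC content to 0.99 at the highest, with TXN and PRDX6 above them and SOD2 and SOD3 below.

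A correction that took each library's smooth trend with exonic GC content out of the values left none of the 10 genes called in a fit without a block by library letter, and that call depends on the block. The background after that correction was 0.00748% of genes called lower, which was G3BP1 alone, and 0% called higher by limma, with 3776 of 13361 genes at an unadjusted p under 0.05, 4 of the 10 antioxidant genes among them. PRDX2 was then at 0.25 (adjusted p = 0.388, limma), PRDX5 at 0.13 (adjusted p = 0.603, limma) and PRDX3 at 0.18 (adjusted p = 0.568, limma), the last with its sign turned. SOD2 was at -0.80 (95% interval -1.40 to -0.19, adjusted p = 0.111, limma), and both siG3BP1 libraries remained below both siCTL libraries. SOD3 was at -0.79 (adjusted p = 0.126, limma). PRDX6 was at 1.42 (95% interval 0.77 to 2.07, adjusted p = 0.0652, limma) and TXN at 1.14 (95% interval 0.46 to 1.83, adjusted p = 0.0789, limma), each with both siG3BP1 libraries above both siCTL libraries. CAT (0.06), SOD1 (-0.20) and PRDX1 (0.22) were nearer to 0.

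The GC content of a gene depends on which transcripts are counted, and for SOD1 and PRDX1 this decided the corrected value. In the canonical transcript GC content was 44.2% for SOD1 and 46.2% for PRDX1, over 5 percentage points below that of all their exons joined. With that GC content, a correction added after the data had been seen, SOD1 was at 1.11 (95% interval 0.42 to 1.81, adjusted p = 0.0944, limma) and PRDX1 at 0.98 (95% interval 0.50 to 1.46, adjusted p = 0.0712, limma). PRDX6 (1.31), TXN (1.15) and SOD3 (-0.85) kept their directions from the first correction, as did SOD2 (-0.50, 95% interval -1.10 to 0.09). None of the 10 genes was called by limma, against 0.00749% of genes lower, again G3BP1 alone, and 0% higher, with 3622 of 13359 genes at an unadjusted p under 0.05 and 5 of the 10 among them. Spearman's rho with GC content over the 10 genes was 0.64 for the canonical transcript, 0.32 for its coding part and 0.56 for its 3 prime untranslated part. SOD2 had a GC content of 41.5% in its canonical transcript and 51.7% in the coding part. The values were not corrected for the GC content of the coding part.

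**Figure D3:**
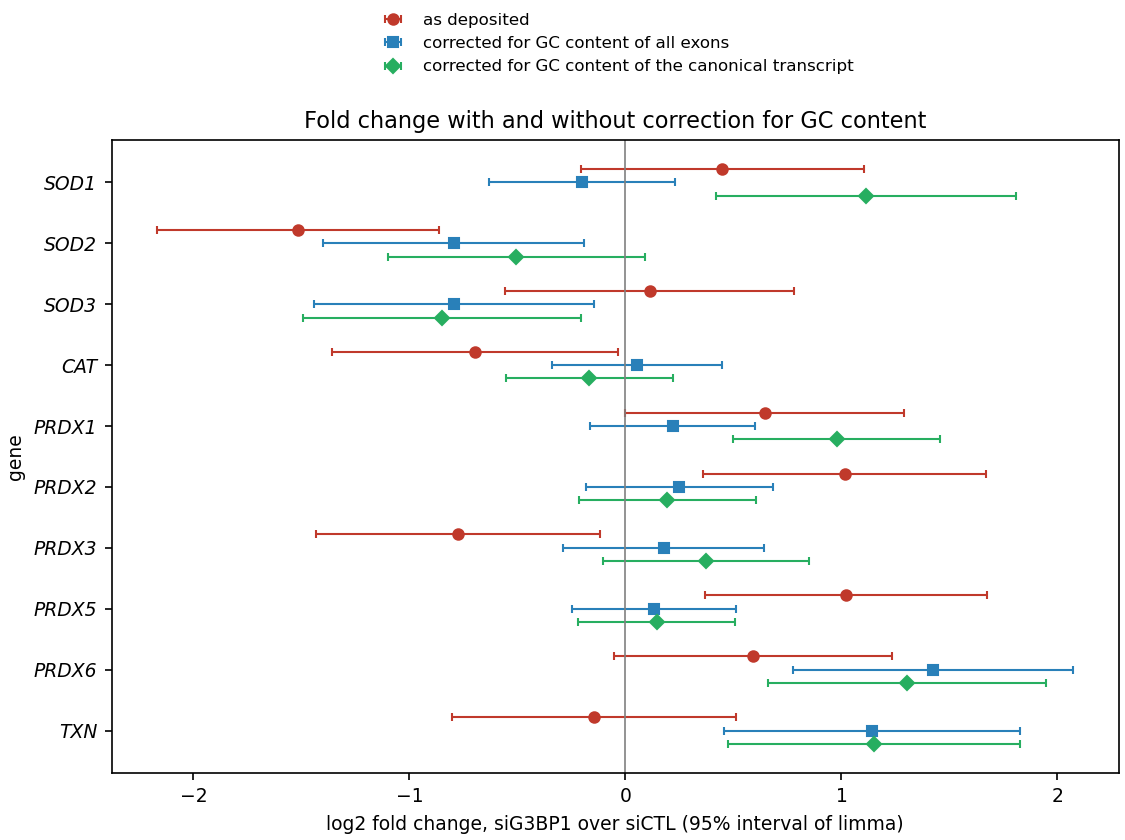
Log2 fold change (siG3BP1 over siCTL) with its 95% interval from limma for each antioxidant gene, from the deposited values (red circles), after correction for the GC content of all exons (blue squares) and after correction for that of the canonical transcript (green diamonds). PRDX2, PRDX3 and PRDX5 move towards 0 with either correction, TXN moves to 1.14 or 1.15, and SOD1 lies on either side of 0 depending on which GC content is used.

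Genes that work with these enzymes changed in both directions. Of 84 partner genes in 4 lists, 66 were tested, of which 18 fell, 25 rose and 23 did not pass. Over all tested genes 30.5% were called lower and 25.9% higher, shares that also stand beside the counts of each list below. None of the partner genes was called by limma after the correction for exonic GC content, in a fit without a block by letter. That fit called 1 of 13361 genes, G3BP1, so a missing call in it says little about a single gene. With the letters as a block too, 6 partner genes were called lower and 21 higher, against 1912 and 1949 of all 13361 genes. Corrected values of partner genes below are from the fit without the block. The exons of the 18 that fell had GC contents of 35.4% to 47.5% and those of the 25 that rose 44.7% to 67.3%. The lists were written with earlier results of these libraries known, and no set test was run.

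Of 17 thioredoxin and peroxiredoxin partners, 5 fell, 7 rose and 5 did not pass, with a median log2 fold change of 0.63 against 0.04 over all tested genes. TXNRD1, the cytosolic reductase that recharges thioredoxin, fell to 3330 and 6051 normalized reads in siG3BP1 cells, against 13238 and 8524 in siCTL cells (log2 fold change -1.24, SE 0.33, adjusted p = 0.00111, limma). TXNRD2, its mitochondrial counterpart, rose to 874 and 490 in siG3BP1 cells, against 268 and 290 in siCTL cells (1.23, SE 0.34, adjusted p = 0.00157, limma). The reductases of the cytosol and of mitochondria thus moved in opposite directions, without overlap between groups in either. After correction for exonic GC content TXNRD1 was at -0.99 (adjusted p = 0.0915, limma) and TXNRD2 at 0.44 (adjusted p = 0.169, limma). The sestrins, stress-induced proteins of the p53 and FOXO programs, did not move together. SESN3 (-2.05) and SESN1 (-1.37) fell, while SESN2, named after its values had been seen, rose to 1571 and 1038 normalized reads in siG3BP1 cells, against 608 and 697 in siCTL cells (0.97, adjusted p = 0.0104, limma). After correction for exonic GC content they were at -0.80, -0.33 and 0.10 in that order, none called. PRDX4, the peroxiredoxin of the endoplasmic reticulum, was named after its values had been seen. It had 2595 and 2468 normalized reads in siG3BP1 cells, against 1611 and 1427 in siCTL cells (0.74, SE 0.33, adjusted p = 0.0485, limma), and was at 0.79 after correction for exonic GC content (adjusted p = 0.0657, limma).

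Of 20 genes of glutathione peroxidases and glutathione, 17 were tested, of which 4 fell, 6 rose and 7 did not pass, with a median of 0.04. GPX1, the selenoenzyme that reduces hydrogen peroxide with glutathione, rose to 12524 and 5793 normalized reads in siG3BP1 cells, against 2843 and 2578 in siCTL cells (log2 fold change 1.65, SE 0.33, adjusted p = 2.581e-05, limma). The groups did not overlap, and the siG3BP1 libraries differed from each other by 2.16 times. GCLC (-1.61), the catalytic subunit of the first enzyme of glutathione synthesis, fell, as did SLC7A11 (-1.35), the cystine importer, and GPX8 (-1.42), a peroxidase of the endoplasmic reticulum. After correction for exonic GC content GCLC was at -0.99 (adjusted p = 0.0634, limma), GPX1 at 0.72 (adjusted p = 0.119, limma), GPX8 at -0.24 and SLC7A11 at -0.04.

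Of 23 genes of superoxide sources and copper handling, 13 were tested, of which 2 fell, 6 rose and 5 did not pass, with a median of 0.58. ATP7A (-1.90), the pump that exports copper and loads it onto secreted enzymes such as SOD3, fell to 154 and 328 normalized reads in siG3BP1 cells, against 779 and 903 in siCTL cells (adjusted p = 2.825e-06, limma). ATOX1 (1.20), the chaperone that brings copper to ATP7A, rose, as did CYBA (1.11), a subunit of NADPH oxidases, and POLDIP2 (1.07). The start of ATOX1 overlaps the start of G3BP1 on the opposite strand, from position 151771045 to 151772532 of chromosome 5, so its value is uncertain unless strand was used in counting. After correction for exonic GC content ATP7A was at -0.63, ATOX1 at 1.39, POLDIP2 at 0.47 and CYBA at 0.22, none called. Of 24 peroxisomal genes, 19 were tested, of which 7 fell, 6 rose and 6 did not pass, with a median of -0.13. AGPS (-1.59), an enzyme of ether lipid synthesis, and PEX13 (-1.42), a gene of protein import, fell, while PEX10 (1.26), a ligase of the import machinery, rose. After the same correction AGPS was at -0.33, PEX13 at -0.27 and PEX10 at 0.39, none called.

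**Figure D4:**
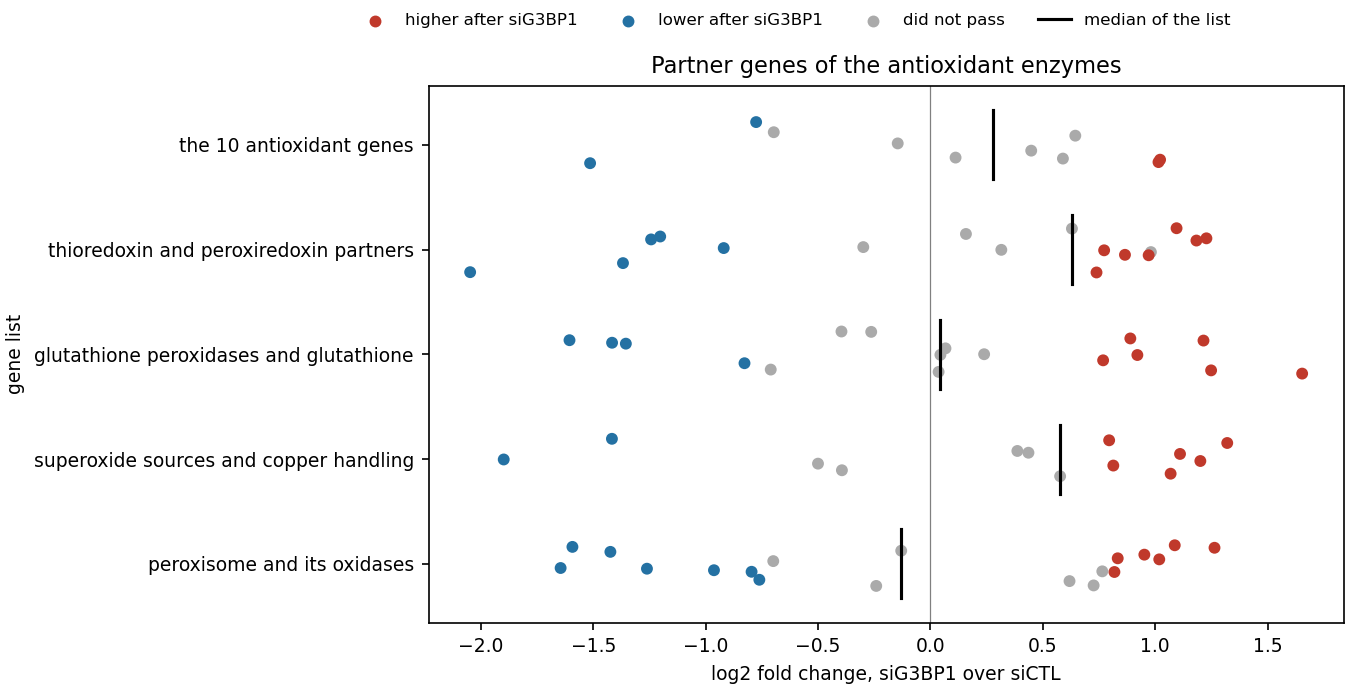
Log2 fold change (siG3BP1 over siCTL) of the 10 antioxidant genes and of the tested genes of 4 partner lists, 1 point per gene, red for higher and blue for lower after siG3BP1 by limma, grey for genes that did not pass, with a black line at each list's median. Every list holds genes on both sides of 0, and the medians run from -0.13 for the peroxisome to 0.63 for thioredoxin and peroxiredoxin partners.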

How the data were processed

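Total RNA of 4 stranded libraries was sequenced. Per the study's methods the authors trimmed reads with Trimmomatic 0.35, aligned them to GRCh38 with STAR and Gencode, and scaled read counts with DESeq2 1.22.1. RSEM and TopHat2 2.0.10 are further tools in the submitters' processing notes. The deposited signal is the reads of a gene over the size factor of its library, and 100% of the values gave whole reads (tolerance 1e-06 reads) once that was undone. The log2 fold changes, p-values and scores of the authors' own comparison in the deposited table were not used.

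Genes with a mean of at least 10 were tested with limma 3.58.1 in R 4.3.3 (mean-variance trend, two-sided, log2(value + 0.5), Benjamini-Hochberg over all tested genes, threshold 0.05), after a check on simulated data. An exact permutation test of 2 against 2 libraries cannot go below p = 0.333 and was not used. A count of 0 allows up to 3 reads in a library, for counting error only. The GC correction fitted a loess trend (span 0.3) to the deviations from gene means in a library and subtracted it. Exons came from Gencode 44, SOD2 by symbol, for 99.5% of tested genes. edgeR 4.0.16 and DESeq2 1.42.0 were run on the recovered reads.

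Named genes are the 10 antioxidant genes, G3BP1, the 4 smallest p of each partner list and the 5 nearest profiles to SOD2 and CAT. A gene that this rule names is not reported here. These genes and lists were chosen with earlier results of these data known. Alternatives were another pseudocount, filters, scalings, tools, GC and length corrections, a block by letter and each library left out.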

Additional observations from a re-analysis of the deposited data

How the results depend on the processing

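Of the 10 antioxidant genes, 2 were called lower and 2 higher. Of all tested genes 4095 (30.5%) were lower and 3481 (25.9%) higher, and of the 66 tested partner genes 18 and 25. After correction for exonic GC content or, chosen after seeing the data, for the GC content of the canonical transcript, limma called 0 antioxidant and 0 partner genes, and 1 gene of all lower and 0 higher. The lower antioxidant count was 1 without a filter on low values. Correction for exonic length left 0 antioxidant genes higher and 16 partner genes higher, and SOD3 reversed to -0.26. Leaving out 1 library each gave 0 to 3 antioxidant genes lower and 0 to 5 higher, 12 to 5050 of all genes lower and 5 to 4575 higher, and 0 to 23 partner genes lower and 0 to 30 higher. The small counts were those without siCTL A (107 lower, 20 higher) or siCTL B (12 lower, 5 higher), where limma put 2740 and 2819 genes at an unadjusted p under 0.05. SOD3 ran from -0.14 to 0.36 and TXN from -0.54 to 0.25 over these. Signs also turned with correction for exonic GC content in SOD1 (-0.20), SOD3 (-0.79), CAT (0.055), PRDX3 (0.18) and TXN (1.14), and with the canonical transcript's in SOD3 (-0.85), PRDX3 (0.37) and TXN (1.15). A fit without a siCTL library takes its spread from the siG3BP1 pair alone, and a fit without a siG3BP1 library from the siCTL pair alone. Why the pairs differed in spread was not tested. On the recovered reads edgeR called 4298 genes lower and 3145 higher, and DESeq2 3535 and 3164. TMM scaling moved the median over all tested genes to -0.04 and quantile normalization to 0.10.

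The letters A and B are shared by the groups. The study says of repeats in general that a treatment ran beside its own controls, but not what these letters mark. The A minus B deviations of the groups correlated over 13422 genes (Pearson 0.30, Spearman 0.04, and Pearson 0.48 after GC correction), which with 2 pairs does not settle a pairing. With the letter as a block, 1 antioxidant gene was lower (SOD2, with PRDX3 at an adjusted p of 0.119 in limma) and 2 higher, 14 partner genes were higher, and 3664 and 2380 of all genes were called. The block with exonic GC correction called 1912 genes lower and 1949 higher, 6 partner genes lower and 21 higher, and SOD2 and SOD3 lower and PRDX6 and TXN higher. The block with the canonical transcript's GC content called 1945 lower and 1888 higher, 5 partner genes lower and 18 higher, and 2 antioxidant genes lower (SOD2 and SOD3) and 4 higher (SOD1, PRDX1, PRDX6 and TXN). Depth limits none of the 10 genes, each at 169 normalized reads or more in every library, whereas 2 libraries per group limit every test.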
